A study of Mus musculus with 24 samples.

Results

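The comparison described here sets the hippocampus of Cdr1as knockout mice against that of wild-type mice, across all genes counted. Its members are the 3 knockout and 3 wild-type libraries whose labels name dissected hippocampus, 6 of the 24 libraries of the series. The other 18 libraries come from the cerebellum, cortex and olfactory bulb, with 6 per region. The mice were C57BL/6, and the groups were Cdr1as knockout (labelled only as a knockout genotype, with no allele named) and wild type. The labels give no age, allele design or pooling. They also leave it unsaid whether the 3 libraries of a group are different animals, and p-values therefore describe only how these libraries vary, which may be technical.

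Cdr1as is a circular RNA of neurons that carries many binding sites for the microRNA miR-7 and a near-complementary site for miR-671, which can cut it. MicroRNAs guide Argonaute proteins to matching sites, chiefly through bases 2 to 8 of the microRNA, called the seed. Immediate-early genes are transcribed within minutes of neuronal activity, and in the hippocampus their products (Fos, Egr and Nr4a factors, Arc) are known markers of recently active neurons. The microRNAs are shown first, from RefSeq, in lower case with the seed in capitals. The reported miR-7 targets below are a list of gene symbols and were not searched for matches to that seed. miR-7a-5p and miR-7b-5p share the seed and miR-671-5p does not.
mmu-miR-7a-5p: uGGAAGACuagugauuuuguugu
mmu-miR-7b-5p: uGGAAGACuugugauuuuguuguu
mmu-miR-671-5p: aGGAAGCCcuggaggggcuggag

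The promoters of 4 immediate-early genes described below are shown next, as the 250 bases before the transcript start (RefSeq, GRCm38.p6, gene strand, 5′ to 3′). They were chosen after their values were seen. Capitals mark TGACG on either strand (read as CGTCA on the other), the core of the cAMP response element that CREB-type factors bind. TGACGTCA, the full palindrome, contains it.
Junb promoter, chr8:84978749-84978998, minus strand: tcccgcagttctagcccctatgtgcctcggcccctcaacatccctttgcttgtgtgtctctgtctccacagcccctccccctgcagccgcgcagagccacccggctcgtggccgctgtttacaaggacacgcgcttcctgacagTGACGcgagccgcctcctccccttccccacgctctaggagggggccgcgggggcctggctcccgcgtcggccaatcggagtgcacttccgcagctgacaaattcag
Egr4 promoter, chr6:85513590-85513839, minus strand: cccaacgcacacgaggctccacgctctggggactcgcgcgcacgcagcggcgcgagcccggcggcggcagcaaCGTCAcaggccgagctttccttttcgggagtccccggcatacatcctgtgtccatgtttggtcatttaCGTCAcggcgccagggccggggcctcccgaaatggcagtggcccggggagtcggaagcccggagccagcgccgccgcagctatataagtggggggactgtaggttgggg
Fos promoter, chr12:85473640-85473889, plus strand: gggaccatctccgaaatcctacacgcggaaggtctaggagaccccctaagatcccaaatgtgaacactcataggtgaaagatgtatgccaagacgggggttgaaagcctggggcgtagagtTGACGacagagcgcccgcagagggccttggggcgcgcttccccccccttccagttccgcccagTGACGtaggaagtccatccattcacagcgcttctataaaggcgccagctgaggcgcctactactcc
Npas4 promoter, chr19:4989972-4990221, minus strand: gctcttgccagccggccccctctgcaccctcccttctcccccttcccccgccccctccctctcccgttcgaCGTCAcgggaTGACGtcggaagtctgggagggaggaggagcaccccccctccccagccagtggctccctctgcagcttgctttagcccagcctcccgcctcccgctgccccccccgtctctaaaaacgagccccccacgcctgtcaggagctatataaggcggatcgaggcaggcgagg
Among the 34 tested immediate-early genes with a promoter entry, 22 held TGACG in these 250 bases (64.7%), against 29.2% of the 11542 tested genes with an entry and 17.8% of all 32851 promoters. The full TGACGTCA stood in 4 of the 34 (11.8%), against 2.93% of the tested genes and 1.55% of all promoters. A match is a description of letters and not a bound site.

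Each hippocampus library held 22.2 M to 36.2 M gene counts, with 22.6 M to 29.5 M in the knockout and 22.2 M to 36.2 M in the wild type, and 19589 to 20604 features had at least 1 count. Markers of hippocampal subfields, 47 genes, summed to 2855 to 3231 CPM (gene counts scaled to a common library size) in the knockout and 2872 to 3260 CPM in the wild type, while no cortex, cerebellum or bulb library exceeded 2087 CPM. The tissue label and its markers match. In bulk RNA, fewer cells of a type and less RNA per cell cannot be told apart.

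The libraries differed in choroid plexus RNA before any genotype is considered. The choroid plexus lies within the ventricles, touches the hippocampus and secretes transthyretin (Ttr). The 19 choroid plexus markers that were tested (of 22 listed) summed to 294, 270 and 233 CPM in knockout libraries 1, 2 and 3, and to 4072, 236 and 4941 CPM in wild-type libraries 1, 2 and 3. Wild-type libraries 1 and 3 thus stood far above the other 4 libraries, and wild-type library 2 lay within the knockout range. Among the listed markers, 2 had a count of 0 in at least 1 library and none was at 0 in all 6.

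Ttr had 12.7, 8.33 and 6.53 CPM in knockout libraries, against 2204, 6.65 and 2918 CPM in wild-type libraries. The groups overlapped, because wild-type library 2 was no higher than the knockout. Enpp2, the lysophospholipase D autotaxin, had 192, 161 and 149 CPM in knockout libraries, against 1437, 137 and 1444 CPM in wild-type libraries. Clic6, a chloride channel of this epithelium, had 0.783, 0.9999 and 0.400 CPM in knockout libraries, against 47.6, 1.42 and 62.8 CPM in wild-type libraries, and its groups did not overlap. All 19 markers were lower in the knockout mean, 17 with an unadjusted edgeR p below 0.05 (2.48% of all genes were), at a median log2 fold change of -3.37, while the median over all genes tested was -0.0016. With the choroid plexus level as a covariate the list's median was 0.09, and without the 2 choroid-rich libraries 0.30. That level is the log2 of the summed CPM of these same 19 markers. The covariate therefore removes most of the list's difference by construction and is no test of the list. Only wild-type library 2 shared the low knockout level. For every gene the covariate fit thus sets the knockout mostly against that library, as leaving out the 2 choroid-rich libraries does. The 2 settings are not separate checks. None of the 19 passed the adjusted threshold of 0.05 in edgeR, with or without the replicate block, while DESeq2 called 4 as lower, Ttr, Trpv4, Clic6 and F5. The log2 fold change of 11 of the 19 turned positive with the covariate and that of 12 without the 2 choroid-rich libraries, Ttr among them at 0.09 and 0.47.

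Other content also differed by library. Knockout library 2 had the highest summed level of the thalamus markers, 431, 617 and 442 CPM in knockout libraries and 462, 383 and 440 CPM in wild-type libraries. Tcf7l2, a transcription factor of thalamic neurons, had 5.39, 22.2 and 4.62 CPM in knockout libraries, against 4.83, 5.15 and 4.38 CPM in wild-type libraries. Only knockout library 2 stood out. Dentate granule cell markers were lowest in both libraries numbered 2, at 1383, 928 and 1301 CPM in the knockout and 1259, 925 and 1018 CPM in the wild type. Meningeal fibroblast markers spanned 343 to 1047 CPM in the knockout and 614 to 1263 CPM in the wild type, highest in knockout library 2 and wild-type library 3. The part of these contents in the results below was not tested beyond the values given.

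**Figure D1:**
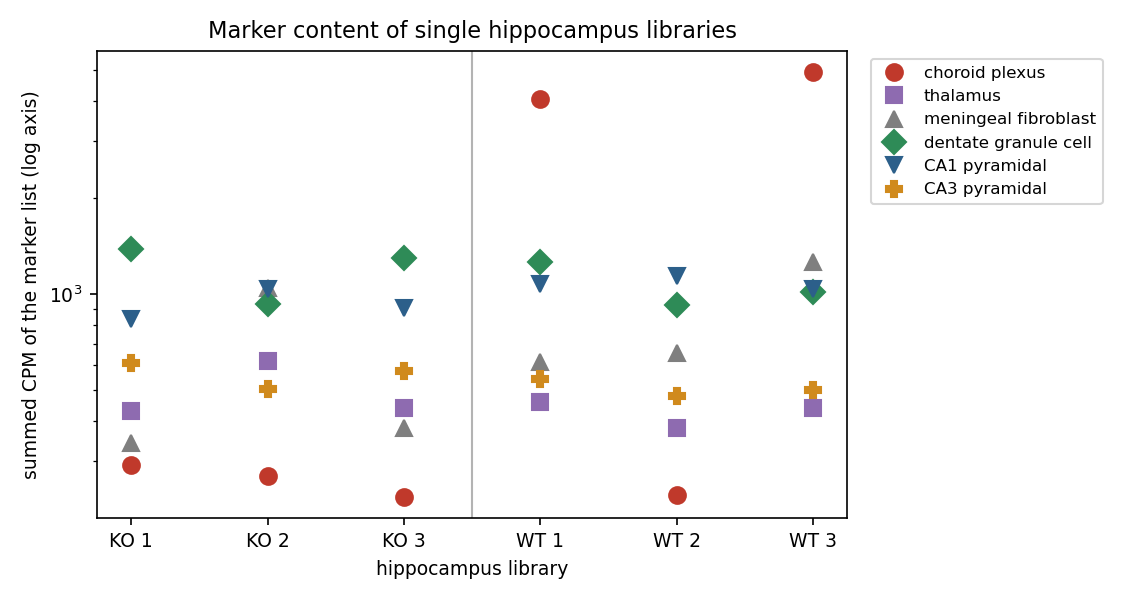
Summed CPM (log axis) of 6 marker lists in each hippocampus library, knockout left and wild type right, each point 1 library. Choroid plexus markers reach 4072 and 4941 CPM in wild-type libraries 1 and 3 and 233 to 294 CPM in the other 4, and thalamus markers are highest, at 617 CPM, in knockout library 2.

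The targeted locus was checked next. Cdr1asG, the authors' own feature at this locus, had 0.565, 0.133 and 1.91 CPM in knockout libraries, against 12.5, 2.23 and 8.33 CPM in wild-type libraries. The groups did not overlap, and knockout library 3 came close to wild-type library 2. The log2 fold change was -3.20 (SE 0.998, edgeR adjusted p = 0.954). It was -1.58 with the choroid plexus level as a covariate and -1.38 without wild-type libraries 1 and 3. Since poly(A) selection leaves out most circular RNA, these counts do not measure the circle itself. C230004F18Rik, a long noncoding RNA of the same locus, had 18.3, 13.03 and 35.02 CPM in knockout libraries, against 10.8, 8.51 and 10.96 CPM in wild-type libraries. Every knockout library was above every wild-type library, at a log2 fold change of 1.13 (SE 0.36, edgeR adjusted p = 0.954), and knockout library 3 was the highest. Without knockout library 3 the log2 fold change was 0.63. Whether counting used the strand is not stated, so reads of overlapping transcripts at this locus cannot be told apart.

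Across all genes, no difference passed. Of 15572 genes tested with edgeR's quasi-likelihood test, 0 (0.0%) had an adjusted p below 0.05, and the smallest was 0.542. At an unadjusted p below 0.05 there were 804 genes, 418 higher in the knockout (2.68%) and 386 lower (2.48%). The 3 knockout and 3 wild-type values did not overlap for 804 genes higher in the knockout (5.16%) and 796 lower (5.11%). DESeq2 called 18 genes higher (0.116%) and 19 lower (0.122%), and limma-voom called 0. Equal replicate numbers correlated between knockout and wild type at 0.489, 0.676 and 0.410 for numbers 1, 2 and 3. Only number 2 stood clearly apart, since knockout library 3 correlated with wild-type library 1 at 0.417. The labels do not say that equal numbers are pairs. A fit with the replicate number as a block was also made, and it called 7 genes as risen (0.045%) and 8 as fallen (0.0514%). DESeq2 also called 10 of those 15.

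Most large negative differences had wild-type libraries 1 and 3 high and wild-type library 2 near the knockout. Of 78 genes with a mean of at least 1 CPM and a log2 fold change under -1, 54 had wild-type library 2 at or below the highest knockout library. With the choroid plexus level as a covariate, 15 of the 78 remained under -1. Of 26 genes over 1, 24 remained over 1 with that covariate, which sets the knockout mostly against wild-type library 2.

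**Figure D2:**
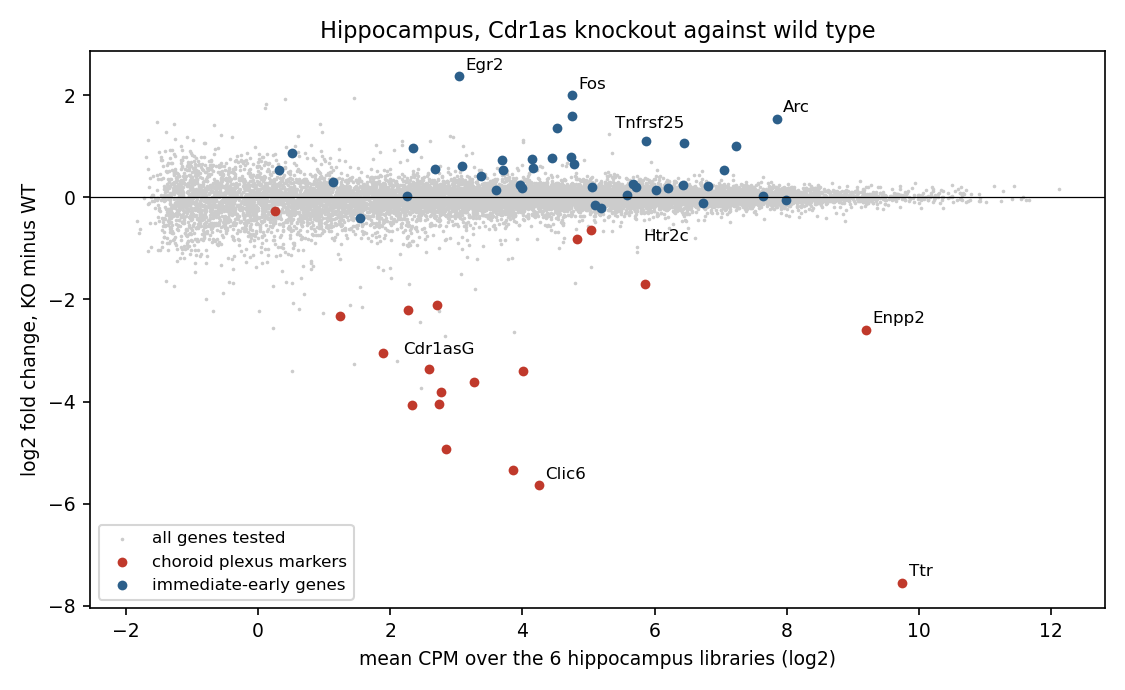
Log2 fold change of knockout minus wild type against mean expression (log2 CPM) for the 15572 genes tested in hippocampus, with choroid plexus markers in red and immediate-early genes in blue, each point 1 gene. The median of the red points is -3.37 and that of the blue points 0.53.

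Genes that rose with the replicate block included a death receptor, a cytokine receptor and 2 immediate-early factors. Tnfrsf25, a death receptor of the tumour necrosis factor family, had 44.6, 60.7 and 61.8 CPM in knockout libraries, against 21.0, 24.8 and 24.9 CPM in wild-type libraries. The groups were far apart, at a log2 fold change of 1.24 (SE 0.14), and it rose in the block fit (log2 1.23, SE 0.07, edgeR adjusted p = 0.000766). Il1r1, the receptor of interleukin 1, had 30.4, 31.3 and 32.4 CPM in knockout libraries, against 20.7, 17.8 and 20.9 CPM in wild-type libraries, and rose in the block fit (log2 0.67, edgeR adjusted p = 0.0469). Both had no overlap between groups. Dnase1l2, a DNase I family endonuclease, had 8.96, 12.5 and 12.8 CPM in knockout libraries and 4.80, 5.99 and 6.23 CPM in wild-type libraries (log2 1.01 without the block, edgeR adjusted p = 0.0469 with it). Ccnd2, cyclin D2, which drives the G1 phase of the cell cycle, had 133, 98.7 and 119.6 CPM in knockout libraries, against 98.2, 74.9 and 86.2 CPM in wild-type libraries. Its groups barely separated, and it rose in the block fit (log2 0.44, edgeR adjusted p = 0.0469). Ccdc117 was the other riser (log2 0.62 with the block, edgeR adjusted p = 0.0469).

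Genes that fell in the block fit included Plekho2, Arhgap26 and a GABA receptor subunit. Plekho2 had 9.17, 10.3 and 9.28 CPM in knockout libraries, against 17.7, 19.0 and 14.6 CPM in wild-type libraries. The groups did not overlap, and wild-type library 2, which was low in choroid plexus RNA, was the highest. Its log2 fold change was -0.84 (SE 0.13), and it fell in the block fit (edgeR adjusted p = 0.0469). Arhgap26, a GTPase-activating protein, had 83.7, 83.3 and 90.8 CPM in knockout libraries and 116, 109 and 124 CPM in wild-type libraries, and fell with the block (log2 -0.44, edgeR adjusted p = 0.0469). Gabra3, the alpha 3 subunit of the GABA-A receptor, had 51.8, 75.7 and 64.9 CPM in knockout libraries, against 83.0, 101 and 90.8 CPM in wild-type libraries, and fell with the block (log2 -0.53, edgeR adjusted p = 0.0469). Neither gene's groups overlapped. Nxph3, a neurexophilin that binds alpha-neurexin, had 10.1, 14.6 and 15.6 CPM in knockout libraries, against 16.7, 27.2 and 27.0 CPM in wild-type libraries (log2 -0.81 with the block, edgeR adjusted p = 0.0443). Ccn3, a matricellular protein, and Plin4, a lipid droplet protein, also fell with the block but their groups overlapped (log2 -0.49 and -0.95, edgeR adjusted p = 0.0469 for both). In the fit without the block, Ccn3 was at -0.32 without knockout library 1 and Plin4 at -0.49 without wild-type library 2. Krt18, a keratin of simple epithelia, and Xlr3b fell with the block too (log2 -3.25, edgeR adjusted p = 0.0443, and log2 -2.05, edgeR adjusted p = 0.0469). Both were highest in wild-type libraries 1 and 3, and with the choroid covariate their log2 fold changes were -1.11 and -1.07.

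Further genes passed neither edgeR fit of the 6 hippocampus libraries but were among those with the smallest p-values, and their groups did not overlap. DESeq2 called all of those named in this paragraph except Cdc42ep1, and Errfi1 also passed in the edgeR fit of all 24 libraries (adjusted p = 0.0228). Errfi1, a feedback inhibitor of the epidermal growth factor receptor, had 65.4, 81.1 and 82.4 CPM in knockout libraries, against 50.4, 43.6 and 47.5 CPM in wild-type libraries (log2 0.69, SE 0.11, edgeR adjusted p = 0.817). Rab40c, a small GTPase, was almost constant within groups, with 65.6, 66.7 and 64.0 CPM in knockout libraries and 50.4, 49.7 and 50.9 CPM in wild-type libraries (log2 0.38, SE 0.07). Cadm1, a synaptic adhesion molecule, had 161, 182 and 170 CPM in knockout libraries, against 220, 229 and 241 CPM in wild-type libraries (log2 -0.43, SE 0.08). Htr2c, a serotonin receptor also found in choroid plexus, had 34.2, 42.4 and 30.4 CPM in knockout libraries and 70.3, 57.9 and 83.4 CPM in wild-type libraries. Its log2 fold change was -0.98 and it was -0.69 without the 2 choroid-rich libraries. Clec14a, an endothelial lectin, had a log2 fold change of -0.93 and, without those libraries, -0.99. Among the remaining named genes, Crip3, Gadd45b and Elmsan1 were higher and Cyb561, Myof, Parm1, Dbp and Cdc42ep1 lower in all 3 knockout libraries, at absolute log2 values of 0.36 to 0.89.

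Immediate-early genes were higher in the knockout mean as a group. The list was drawn up with earlier results of these data known, so its counts describe these libraries and are no independent test. Of 41 tested (of 42 listed), 36 had a positive log2 fold change, with a median of 0.53, while the median over all genes was -0.0016. At an unadjusted p below 0.05, 18 were higher and 0 lower, against 2.68% and 2.48% of all genes, and 14 had groups that did not overlap with the knockout higher, against 5.16%. Egr4 and Junb, 2 of them, rose in the edgeR block fit, and none passed edgeR without the block. DESeq2 without the block called 6 as higher, namely Egr4, Junb, Npas4, Gadd45b, Nr4a3 and Egr1, against 0.116% of all genes. With the choroid covariate the list's median was 0.51 and without the 2 choroid-rich libraries 0.58. Both medians rest mostly on wild-type library 2 as the wild type. Leaving out 1 library at a time gave medians of 0.255, without knockout library 2, to 0.54.

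Junb, an AP-1 subunit, had 57.01, 86.2 and 94.6 CPM in knockout libraries, against 28.5, 39.1 and 43.7 CPM in wild-type libraries. It rose in the block fit (log2 1.09, SE 0.06, edgeR adjusted p = 0.000766). Egr4, a zinc finger factor of the Egr family, had 26.3, 31.7 and 41.6 CPM in knockout libraries, against 10.98, 12.1 and 15.96 CPM in wild-type libraries. It rose in the block fit (log2 1.34, SE 0.08, edgeR adjusted p = 0.000766). Neither gene's groups overlapped, and library 3 was highest and library 1 lowest within both groups.

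Fos, the AP-1 subunit used as an activity marker, had 20.3, 57.6 and 51.0 CPM in knockout libraries, against 8.68, 6.58 and 17.1 CPM in wild-type libraries (log2 2.005, SE 0.54, edgeR adjusted p = 0.954). Npas4, a neuron-specific activity factor, had 20.4, 55.1 and 46.3 CPM in knockout libraries, against 10.03, 17.6 and 12.8 CPM in wild-type libraries (log2 1.60, SE 0.40). Arc, which is translated at active synapses, had 201, 386 and 442 CPM in knockout libraries, against 90.1, 89.3 and 174 CPM in wild-type libraries (log2 1.54, SE 0.40). In all 3 genes the groups did not overlap, and knockout library 1 was closer to the wild type than knockout libraries 2 and 3. Knockout library 1 was the lowest knockout library for 32 of the 41 genes. Egr1 (log2 0.99) and Egr2 (log2 2.37) followed the same order, and Egr2 had only 4.87 CPM in knockout library 1 against 18.3 CPM in each of the other two.

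Not all members were higher. Fosb overlapped, with 17.7, 33.8 and 30.9 CPM in knockout libraries and 19.2, 16.7 and 12.6 CPM in wild-type libraries. Ptgs2, cyclooxygenase 2, Klf6, Rheb, Ier3 and Plk2 had log2 fold changes of -0.41 to -0.06. Homer1, whose short form is an activity product, overlapped at a log2 fold change of 0.03. Nr4a3, an orphan nuclear receptor, had 156, 142 and 173 CPM in knockout libraries against 121, 103 and 102 CPM in wild-type libraries (log2 0.53, SE 0.11). Those groups did not overlap.

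**Figure D3:**
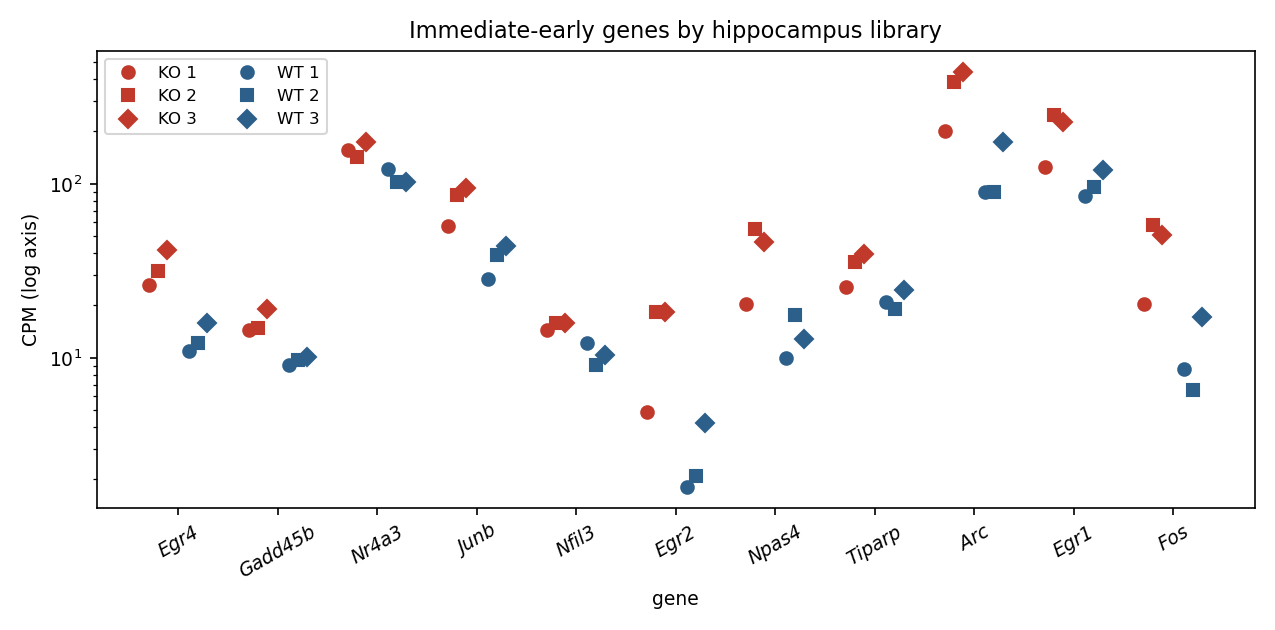
CPM (log axis) of the 10 immediate-early genes with the smallest p and of Fos, each point 1 library with the knockout in red left of the wild type in blue. Knockout libraries lie above the wild-type ones in every gene shown, and knockout library 1 is the lowest of the 3 in most.

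Of the 24 slower activity-response genes tested, 6 had a positive log2 fold change and the median was -0.11. At an unadjusted p below 0.05, 1 was higher and 2 were lower, against 2.68% and 2.48% of all genes. Sorcs3, a sorting receptor, had 48.1, 48.6 and 43.1 CPM in knockout libraries, against 61.3, 53.4 and 61.2 CPM in wild-type libraries (log2 -0.33, SE 0.09). Sst, somatostatin, had a log2 fold change of -0.21 and Penk, proenkephalin, of 0.23. In all 3 genes, picked by their p-values, the groups did not overlap. Of the 24, 1 was wholly higher and 2 were wholly lower, against 5.16% and 5.11% of all genes. At this list size these counts do not set the list apart. MAP kinase feedback genes, 15 tested with 9 positive, had a median of 0.03. Of the 15, 3 were higher and 0 lower at an unadjusted edgeR p below 0.05, against the same 2.68% and 2.48%. Dusp5, a phosphatase of ERK, had 30.8, 38.2 and 44.6 CPM in knockout libraries and 23.0, 20.8 and 24.9 CPM in wild-type libraries (log2 0.73, SE 0.14), and Nab2, a corepressor of Egr factors, had a log2 fold change of 0.40. Their groups did not overlap. DESeq2 called Dusp5 and Errfi1, and no member passed either edgeR fit.

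Reported miR-7 targets, 29 tested of 30 listed, had 18 positive values and a median of 0.04. At an unadjusted p below 0.05, 5 were higher and 0 lower, against 2.68% and 2.48% of all genes. Those were Fos, Nr4a3 and Klf2, which also stand on the immediate-early list, and Irs2 and Mknk2. Irs2, an insulin receptor substrate, had a log2 fold change of 0.35. Mknk2, a kinase of the translation factor eIF4E, had 51.0, 60.0 and 55.8 CPM in knockout libraries, against 47.7, 45.1 and 42.2 CPM in wild-type libraries (log2 0.30, SE 0.09). None passed either edgeR fit, and DESeq2 called 1, Nr4a3 (adjusted p = 0.0206). Of 17 tested genes of the microRNA machinery and the locus, 9 were positive, and apart from the locus transcripts the smallest p among members with a mean of at least 1 CPM belonged to Ago4, an Argonaute protein (log2 0.19, SE 0.12), whose groups overlapped.

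Clock genes, 25 tested with 12 positive, had a median of -0.02. Of the 25, 2 were higher and 5 lower at an unadjusted edgeR p below 0.05, against 2.68% and 2.48% of all genes. None passed either edgeR fit, and DESeq2 called 1 as lower, Dbp (adjusted p = 0.0465). Dbp, a clock output factor, had 35.3, 37.7 and 35.1 CPM in knockout libraries, against 46.5, 62.6 and 50.4 CPM in wild-type libraries (log2 -0.56, SE 0.12). Per1, a core clock repressor also induced by activity, had 97.0, 149 and 125 CPM in knockout libraries, against 79.1, 89.8 and 89.7 CPM in wild-type libraries (log2 0.52, SE 0.15). Neither pair of groups overlapped. Glucocorticoid response genes, 19 tested with 10 positive, had a median of 0.02 (Pdk4 log2 0.45), and 1 of them, Plin4, fell in the block fit. Of the 19, 4 were higher and 1 was lower at an unadjusted edgeR p below 0.05, against the same 2.68% and 2.48%.

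Among the listed synaptic genes, 1 passed, Gabra3 in the edgeR block fit. Glutamate receptor genes, 24 tested with 9 positive, had a median of -0.05. Grm8, a presynaptic metabotropic glutamate receptor, had 3.0, 6.03 and 6.21 CPM in knockout libraries, against 7.90, 9.97 and 9.47 CPM in wild-type libraries (log2 -0.84, SE 0.27). GABA-A receptor genes, 13 tested with 4 positive, had a median of -0.15. Gabrd, the delta subunit of extrasynaptic receptors, went the other way from Gabra3 at a log2 fold change of 0.35 (SE 0.08), with 28.1, 29.0 and 27.1 CPM in knockout libraries and 20.9, 22.3 and 22.9 CPM in wild-type libraries. In all 3 the groups did not overlap, as for 5.16% (knockout higher) and 5.11% (knockout lower) of all genes. Medians were -0.02 for synaptic vesicle release genes (31 tested) and 0.00 for nuclear oxidative phosphorylation genes (38 tested). They were -0.05 for heat shock genes (14 tested) and -0.07 for interferon response genes (20 tested). Each of these lists had between 0 and 1 member per direction with an unadjusted edgeR p below 0.05, against 2.68% higher and 2.48% lower of all genes. At these list sizes such counts do not set the lists apart from those shares.

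Apart from the choroid plexus list, the cell type and subfield marker lists had medians between -0.34 and 0.17. Dentate granule cell markers had 13 of 15 positive, at a median of 0.12, which was 0.39 with the choroid covariate, 0.34 without knockout library 2 and 0.31 without wild-type library 1. CA3 markers had 9 of 11 positive (median 0.15) and CA1 markers 3 of 11 (median -0.08). Inhibitory neuron markers had 1 of 14 positive (median -0.10), and 1 of them, Sst, was lower at an unadjusted edgeR p below 0.05. Astrocyte, oligodendrocyte and microglia markers had medians of 0.01, 0.07 and 0.02 and no member with an unadjusted p below 0.05. Of all genes, 2.68% were higher and 2.48% lower at that threshold, so the counts of these inhibitory and glial lists do not set them apart. Other lists had more. CA3 markers had 3 higher and 0 lower, dentate markers 2 and 0, and CA1 markers 0 and 2. CA2 markers (10 tested) had 2 and 1, endothelium markers (12 tested) 1 and 2. Striatum markers (11 tested) had 1 and 3, and cortex markers (13 tested) 0 and 3. Ccn3, which fell in the block fit, is on the CA1 list. What these counts reflect was not tested. Striatum and meningeal fibroblast markers had medians of -0.26 and -0.34, which were 0.01 and -0.12 with the choroid covariate. Ependyma markers had a median of -0.24, and 0.54 with that covariate.

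**Figure D4:**
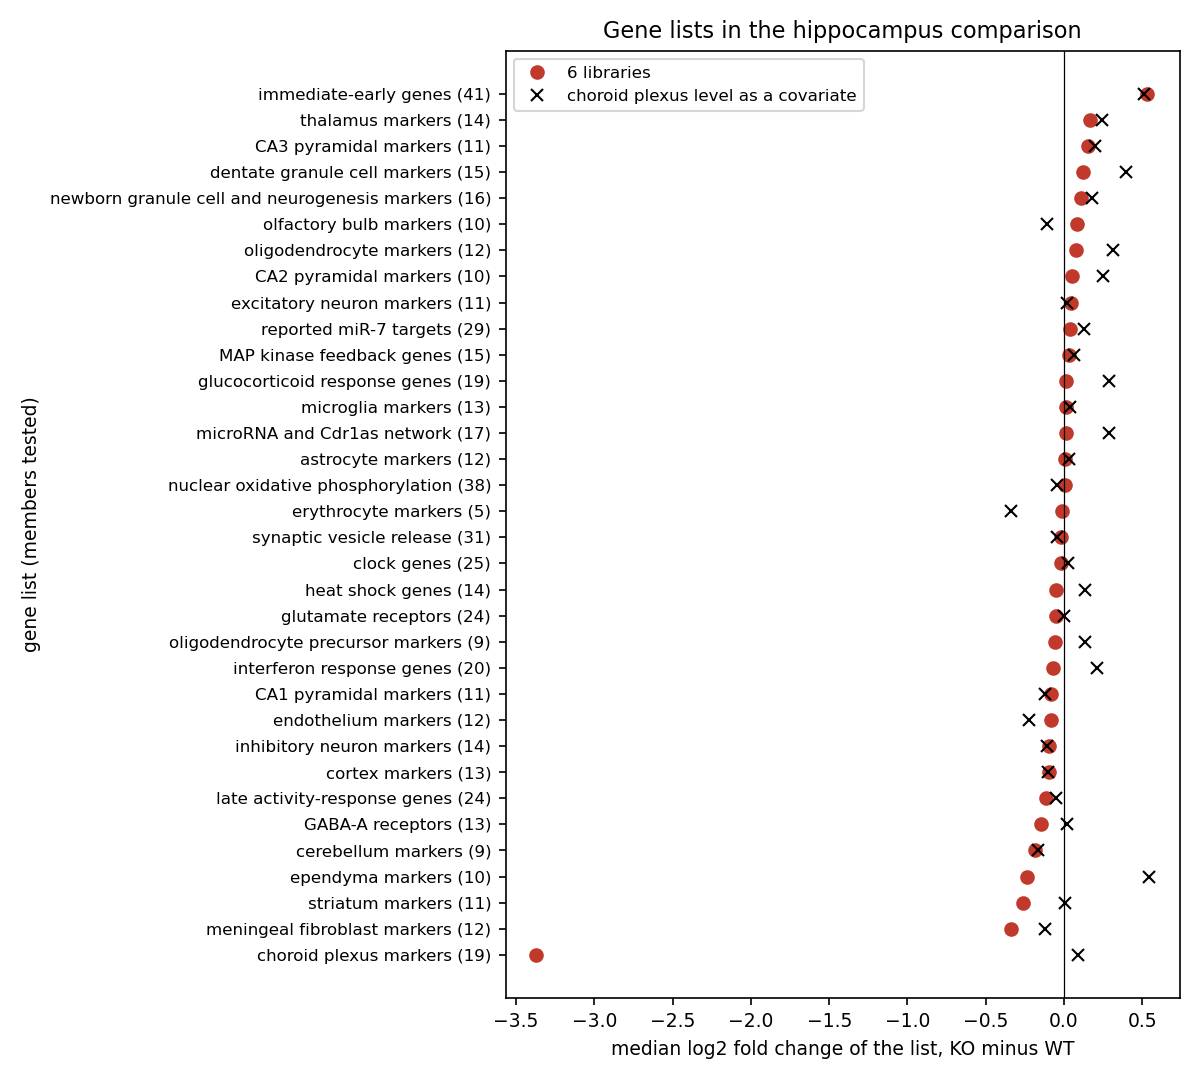
Median log2 fold change of knockout minus wild type for each gene list, in the fit of 6 libraries (red) and with the choroid plexus level as a covariate (black crosses), with the number of members tested in parentheses. Immediate-early genes lie at 0.53 and 0.51, and choroid plexus markers at -3.37 and 0.09. The covariate is built from the choroid plexus markers themselves.

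The hippocampus was then set against the mean knockout effect of the cerebellum, cortex and olfactory bulb, in a fit of all 24 libraries. The labels do not say whether the same animal gave libraries of several regions. The fits, with or without the block, treated the regions as independent, so their p-values carry that assumption. Of 17266 genes tested with edgeR, 0 (0.0%) passed at an adjusted p below 0.05, the smallest being 0.151, and 613 had an unadjusted p below 0.05. DESeq2 called 15 (0.0869%). With the replicate block, 6 genes passed with a lower effect in hippocampus (0.0348%) and none with a higher one. They were Nr4a2, Grm8, Gabra3, Serpini1, Tmsb10 and Pla2g5.

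Nr4a2, an orphan nuclear receptor of the immediate-early list, had 55.7, 82.8 and 95.5 CPM in knockout hippocampus, against 67.8, 62.6 and 76.8 CPM in wild-type hippocampus, and the groups overlapped. Its log2 fold change was 0.18 in hippocampus, 1.87 in cerebellum, 0.75 in cortex and 1.58 in bulb. The difference was -1.24 in the block fit (edgeR adjusted p = 0.045). Fosl2 (0.25 against 1.46, 1.07 and 1.81 in cerebellum, cortex and bulb), Nr4a3 (0.53 against 1.90, 1.38 and 2.26) and Ptgs2 (-0.20 against 0.77, 0.38 and 1.24) were also lowest in hippocampus, with differences that did not pass edgeR with or without the block. Further members, among them Fosb and Nr4a1, also lay lowest there. Fos (2.01), Npas4 (1.60) and Arc (1.54) in hippocampus lay within the range of the other 3 regions. Egr2 went the other way and was highest in hippocampus (2.38 against -0.76, 1.95 and 1.35), as were Amigo3 and Zfp36. Their differences of 1.54, 0.37 and 0.21 did not pass edgeR with or without the block.

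Grm8 and Gabra3 had log2 fold changes of -0.83 and -0.51 in hippocampus, against -0.03 to 0.12 for Grm8 and -0.07 to 0.05 for Gabra3 elsewhere. Serpini1, the neuronal serpin neuroserpin, had 199, 238 and 237 CPM in knockout hippocampus, against 253, 298 and 306 CPM in wild-type hippocampus. Tmsb10, a thymosin that binds actin monomers, had 28.9, 35.8 and 36.9 CPM in knockout hippocampus, against 39.8, 47.2 and 46.4 CPM in wild-type hippocampus. Pla2g5, a secreted phospholipase, was low throughout and highest in the 2 choroid-rich libraries, with 0.304, 0.300 and 0.400 CPM in knockout hippocampus and 2.21, 0.658 and 3.11 CPM in wild-type hippocampus. Its difference was -2.58, and -1.002 without the 2 choroid-rich libraries. In all 5 genes the groups did not overlap.

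**Figure D5:**
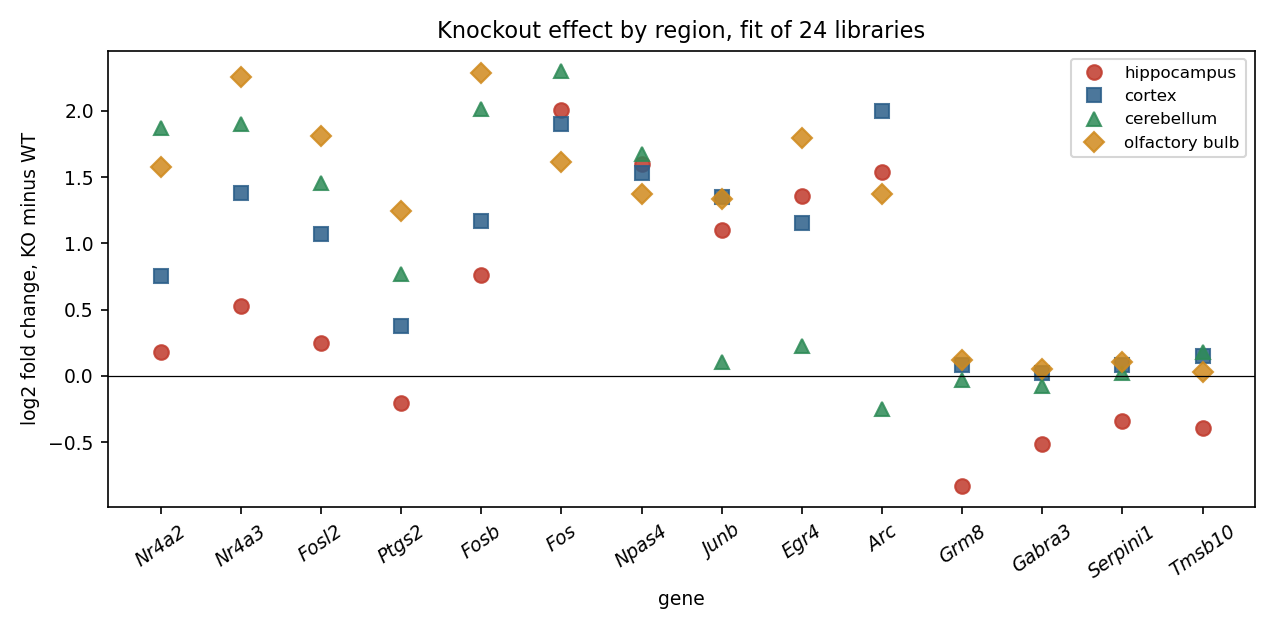
Log2 fold change of knockout minus wild type by region, from the fit of 24 libraries, each point 1 gene in 1 region. Nr4a2, Nr4a3, Fosl2 and Ptgs2 lie lowest in hippocampus (0.18, 0.53, 0.25 and -0.20), and Grm8 and Gabra3 lie at -0.83 and -0.51 there. The genes shown are a selection, and Egr2, not shown, is highest in hippocampus.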

How the data were processed

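Polyadenylated RNA, isolated by TRIzol per the labels, was turned into libraries with a kit that keeps the strand. The deposited values are raw counts of reads per gene, as whole numbers, in 1 table per library. Per the submitters' processing notes bcl2fastq 2.17.1.14, STAR 2.5.1b and HTSeq 0.6.1p1 were used with the mm9 assembly. The strand setting of the counting is not given in the sources used here, and reads of antisense partners cannot be told apart. Each table had 37621 features and 5 summary lines, which were left out. In total 32898 features had a symbol.

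Low genes were removed by filterByExpr, libraries were scaled by TMM and genes were tested with edgeR 4.0.16 (quasi-likelihood, robust) at an adjusted p below 0.05 (Benjamini-Hochberg), in R 4.3.3. limma 3.58.1 (voom) and DESeq2 1.42.0 were alternatives. CPM are TMM-scaled. The interaction used all 24 libraries. Replicate numbers from the labels were checked for pairing: over genes, each library's deviation from its group mean was correlated between knockout and wild type, giving 0.489, 0.676 and 0.410 for equal numbers 1, 2 and 3. All exceeded 0.1, so the numbers were treated as pairs and a block fit was made, although unequal numbers gave -0.610 to 0.417 and only number 2 stood clearly apart. No 2 libraries of a group agreed within sampling noise. The main edgeR fits, without block or covariate, were tested on simulated counts. Those counts had the same fixed spread for every gene and no choroid plexus or replicate structure. The block and covariate fits were not tested in this way.

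Gene lists of 548 symbols, 545 matched, cover pathways and cell types. Members, lists and rules were chosen with earlier results of these data known. Genes named in each direction are the 10 with the smallest p at a mean of at least 1 CPM, the locus genes, list members with the smallest p or highest level, genes called with the block, and a few (Fosb, Homer1, Tcf7l2, Irs2 and others) chosen after their values were seen. Promoter and microRNA sequences are from RefSeq, GRCm38.p6, matched by symbol, and are not on the build of the counts.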

Additional observations from a re-analysis of the deposited data

Results flagged for a closer look

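For 6 genes the knockout effect in hippocampus differed from the mean of the other regions when the difference itself was tested in edgeR with the replicate block, on the log2 scale. The differences were -1.24 for Nr4a2, -0.93 for Grm8, -0.53 for Gabra3, -0.41 for Serpini1, -0.52 for Tmsb10 and -2.44 for Pla2g5. None passed without the block, where the smallest edgeR adjusted p among all genes was 0.151. Pla2g5 was highest in the 2 choroid-rich wild-type libraries, and its difference without them was -1.002 (without the block).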

How the results depend on the processing

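The count of genes that rose was 0 in the main setting, 18 with DESeq2, 1 with no filter, 1 in the fit of all 24 libraries, 7 with the replicate block, and 0 to 0 without 1 library at a time. The count of genes that fell was 0, and 19 with DESeq2, 4 in the fit of all 24 libraries and 8 with the replicate block. Without 1 library at a time it was 0 to 42, the 42 arising without wild-type library 2, which leaves only choroid-rich wild-type libraries, and 18 of those 42 were choroid plexus markers. The count with a different effect in hippocampus was 0, and 15 with DESeq2, 6 with the replicate block, and 0 to 16 without 1 library at a time (16 without wild-type library 2, and 1 without knockout library 2). The remaining alternatives, among them limma-voom, library totals, other size factors, a mean CPM of at least 1, the choroid covariate and leaving out wild-type libraries 1 and 3 (added after seeing the data; the lone wild-type library is assumed to vary like the knockout ones), gave 0 where they were run. Of 59 genes named from the smallest p-values, the locus and the pathway lists, followed through 17 alternatives, 1 changed direction. Marker genes were not among the 59, and 11 of 19 choroid plexus markers turned positive with the choroid covariate, which is built from those 19. Zswim8 was 0.11 on the log2 scale, -0.052 with the choroid covariate, -0.056 without the 2 choroid-rich libraries and -0.07 in the fit of all 24 libraries less those 2. Depth limits low genes most, and 3 libraries per group limit every test.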
